A study of Mus musculus with 16 samples.

Results

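The hypusination axis consists of the translation factor gene Eif5a and the genes of the enzymes that modify its product, Dhps and Dohh. They were chosen by symbol, a rule that uses no measured value, but with earlier results of these data known. All 3 were present among 22612 genes with counts. Each gene is represented by the transcript with the most ribosome footprints over the 8 Ribo-seq libraries. Messenger RNA (RNA-seq) and ribosome-protected fragments (Ribo-seq) were measured from the same lysates of cells sorted from mouse hair follicle stem cell (HFSC) organoids, in which CD34+ stem cells and CD34- progenitors coexist in a 3D-3C culture. α6+/CD34- progenitors and α6+/CD34+ HFSCs were sorted after 2 weeks from cultures that stayed untreated or received N1-acetylspermidine (N1-AcSpd) during the final 72 h. The cells came from 2 C57BL/6J mice, for which the labels give no engineered allele. There were thus 4 groups, untreated progenitors, untreated HFSCs, N1-AcSpd progenitors and N1-AcSpd HFSCs, with n = 2 libraries per group and assay and 16 libraries in all. Because progenitors and HFSCs of a treatment were sorted from shared organoids, each group describes cells grown beside the other cell type.

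eIF5A binds ribosomes that have stalled and helps them to form the next peptide bond or to release the finished chain. It is active only once a conserved lysine carries hypusine, an amino acid made from spermidine. Deoxyhypusine synthase, encoded by Dhps, moves the aminobutyl part of spermidine onto that lysine, and deoxyhypusine hydroxylase, encoded by Dohh, adds the hydroxyl group. Counts of RNA or footprints per gene do not read the modification itself, and neither assay measured it.

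The codon of the modified lysine is shown because it is the point at which the 3 genes meet, and because the same residue exists in the paralogue Eif5a2, whose product is modified by the same enzymes. In the kept transcripts it is codon 50, AAG, in capitals below with 27 bases on each side, 5′ to 3′ in the coding direction, read from GRCm38 with the GENCODE M21 annotation.
Eif5a: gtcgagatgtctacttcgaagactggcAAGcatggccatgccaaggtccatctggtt
Eif5a2: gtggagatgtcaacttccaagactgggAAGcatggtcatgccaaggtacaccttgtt
The Eif5a codon lies at chr11:69919166-69919168 on the minus strand and the Eif5a2 codon at chr3:28782199-28782201 on the plus strand, both within coding exons, and the printed stretch of each spans an intron. The stretches differ at 8 of 57 bases, none of which changes the encoded residue. Over the whole coding sequences 338 of 462 aligned bases are identical (73.2%), and the encoded proteins share 127 of 153 aligned residues (83.0%). No stretch of 28 bases, about the length of a footprint, is shared by the coding sequences, so reads of this length match only 1 of both genes.

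In GRCm38, Eif5a (ENSMUSG00000078812) occupies chr11:69916714-69921958 with 4 coding exons and 462 coding bases. Dhps (ENSMUSG00000060038) occupies chr8:85071757-85075162 with 9 coding exons and 1107 coding bases, and Dohh (ENSMUSG00000078440) occupies chr10:81384428-81388352 with 4 coding exons and 906 coding bases. The deposited counts were taken over the coding sequence: 5899 of 5918 pairs of transcripts with the same coding sequence but different exons had identical RNA-seq counts. Of the 28-base words of the Eif5a coding sequence, 236 of 438 (53.9%) occur nowhere else in the genome. The others are found at up to 4 further places, the processed pseudogenes Eif5al3-ps (178 words), AC125203.1 within Pcsk5 (75 words), Gm14016 (58 words) and Gm42779 (3 words). All such words of Dhps, Dohh and Eif5a2 are unique. How reads with several matches were counted is not given in the sources used here, so the Eif5a level is uncertain. Wdr83 lies on the strand opposite to Dhps and shares 128 exon bases with it, 0 of them coding. Gm48551, on the strand of Dohh, holds 88.7% of the Dohh coding sequence, and reads from it cannot be told apart from those of Dohh.

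The RNA-seq libraries held 21612795 to 31524062 counts on the kept transcripts and the Ribo-seq libraries 34475 to 268052, so footprint values carry far larger counting error. Cd34, on which the cells were sorted, ranged from 67.6 to 90.8 CPM (counts scaled to a common library size) in the 4 HFSC RNA-seq libraries and from 2.33 to 5.14 CPM in the 4 progenitor libraries. The basal keratin genes Krt5 and Krt14 were abundant in every library, and the summed RNA-seq level of the fibroblast, endothelial, immune or melanocyte marker lists never exceeded 9.90 CPM. Within these lists Lum, Cdh5 and Lyz2 had no count in any of the 8 RNA-seq libraries, and Ptprc and Cd3e had none in 3 of the 4 groups. Other members had low levels in every library, among them Col1a2 (0.163 to 5.83 CPM), Pecam1 (0.324 to 1.68 CPM), Cd74 (0.275 to 3.19 CPM) and Pmel (0.370 to 0.962 CPM). The mouse difference in the N1-AcSpd HFSC RNA-seq libraries ran against that of the other 3 groups, as given with the processing. Statements below therefore compare groups, except where pairs by replicate number or the mouse as a block are named. Unless exchanged numbers are stated, those exceptions take the replicate numbers as labelled.

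Per kilobase of coding sequence Eif5a exceeded its enzymes by more than an order of magnitude in both assays. Its mean RNA-seq level over the 8 libraries was 1805 CPM per kb (range 1528 to 1996), which placed it 96th of the 14163 of 14224 tested genes that have a coding length. Dohh averaged 64.4 CPM per kb (55.0 to 78.6), above 84.2% of genes, and Dhps 26.8 CPM per kb (23.8 to 30.6), above 66.2% of genes. The gene median was 13.6 CPM per kb. The order Eif5a, Dohh, Dhps held in every RNA-seq library, with no overlap of the ranges, and the mean Eif5a level was 28 times that of Dohh and 67.2 times that of Dhps.

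In Ribo-seq the same order applied to the means. Eif5a averaged 1472 CPM of footprints per kb (953 to 2086), 96th of 8428 such genes, of 8440 tested. Dohh averaged 113 CPM per kb (28 to 177), above 80.6% of genes, and Dhps 25.8 CPM per kb (7.24 to 63.6), above 43.2%. Here the ranges of Dohh and Dhps overlapped, since single libraries held 1 to 36 Dohh and 1 to 5 Dhps footprints. The paralogue Eif5a2 was scarce, with 31 to 64 RNA-seq counts per library (1.44 to 2.50 CPM) and 2 footprints in all, both in the untreated progenitor library of replicate 2. In the other 7 Ribo-seq libraries its count of 0 allows up to 3 footprints per library.

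**Figure D1:**
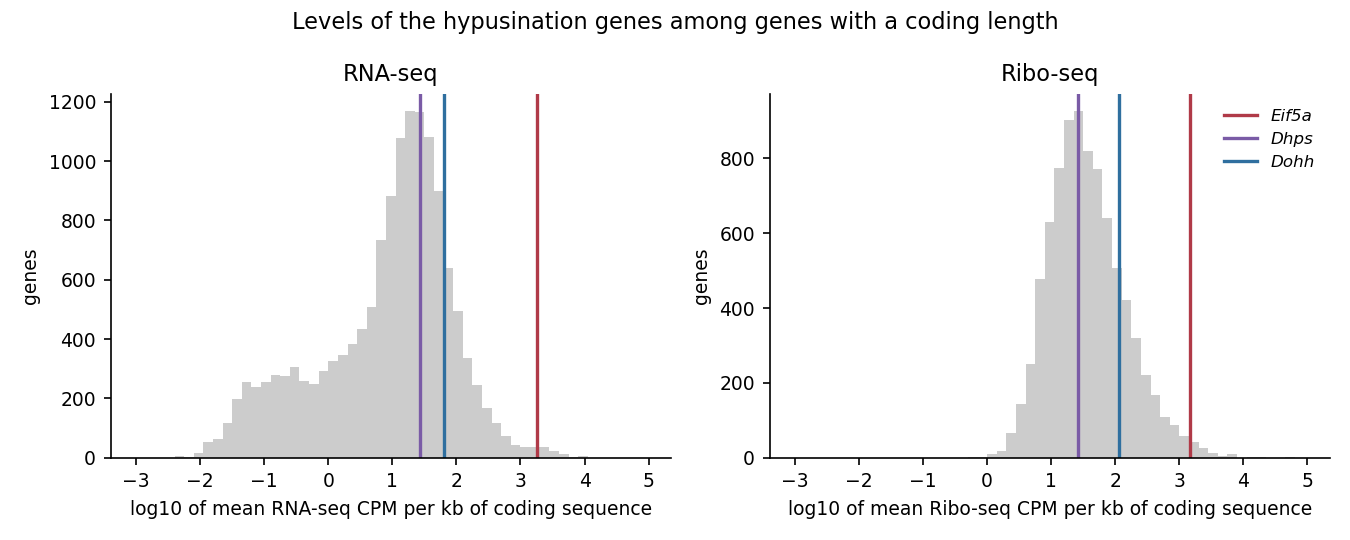
Histograms of the mean level of the tested genes that have a coding length, as log10 of CPM per kilobase of coding sequence (x axis) against the number of genes (y axis), for RNA-seq and Ribo-seq. Vertical lines mark the 3 genes: Eif5a sits in the upper tail of both assays, 96th of 14163 genes in RNA-seq, while Dohh and Dhps lie nearer to the bulk.

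The ratio of mean footprint CPM to mean RNA-seq CPM, in which coding length cancels, was 0.816 for Eif5a, 1.76 for Dohh and 0.962 for Dhps. Among 3310 genes with at least as many RNA-seq counts on average as Dohh and an average of 1 footprint or more, the median ratio was 0.986. Eif5a stood above 40.8% of these genes, Dhps above 48.5% and Dohh above 79.2%, although Dhps itself has fewer RNA-seq counts than the genes of this set. The rank depends on the genes it is taken among: over 2261 genes averaging 10 footprints or more, a filter that keeps genes with many footprints for their mRNA, the median was 1.68, and Eif5a stood above 12.8%, Dohh above 53.5% and Dhps, itself under that minimum, above 18.2%. The Dhps ratio rests on 18 footprints in all. The Eif5a ratio shares the uncertainty over reads with several matches, whose part in it was not tested.

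The first comparison asks how the stem cells and the progenitors of the same untreated organoids differ. Eif5a mRNA stood at 885 and 831 CPM in untreated progenitors and at 796 and 706 CPM in untreated HFSCs. Dohh mRNA stood at 60.4 and 57.5 CPM in progenitors and at 53.3 and 51.2 CPM in HFSCs. For both genes the 2 HFSC libraries lay below the 2 progenitor libraries, as was the case for 21.6% of all 14224 genes tested. Dhps mRNA, at 26.4 and 29.5 CPM in progenitors and 26.6 and 27.3 CPM in HFSCs, overlapped between the groups. The fitted log2 fold change of mRNA (HFSC over progenitor) was −0.19 for Eif5a (95% interval −0.44 to 0.06), −0.17 for Dohh (−0.44 to 0.10) and −0.05 for Dhps (−0.30 to 0.20). Without 1 library the Eif5a value ran from −0.28 to −0.11. None of the 3 genes passed the test, edgeR's quasi-likelihood test adjusted by Benjamini-Hochberg over all genes, which called 0.148% of genes. The adjusted p-values were 0.648 for Eif5a, 0.728 for Dohh and 0.930 for Dhps. At an unadjusted p under 0.05, which 9.58% of genes had, the count was also 0 of 3, and DESeq2 called 0 of 3.

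In the organoids given N1-AcSpd all 3 genes had lower mRNA values in both HFSC libraries than in either progenitor library, against 19.5% of all genes. Eif5a measured 922 and 894 CPM in N1-AcSpd progenitors and 769 and 866 CPM in N1-AcSpd HFSCs. Dohh measured 71.2 and 63.6 CPM in progenitors and 49.8 and 59.9 CPM in HFSCs, and Dhps 33.9 and 33.4 CPM in progenitors and 29.6 and 31.0 CPM in HFSCs. The gaps between the groups were small beside the spread within N1-AcSpd HFSCs for Eif5a and Dohh. The log2 fold change was −0.15 for Eif5a (95% interval −0.40 to 0.10, edgeR adjusted p = 0.714), −0.30 for Dohh (−0.57 to −0.03, adjusted p = 0.388) and −0.15 for Dhps (−0.40 to 0.10, adjusted p = 0.713). The Dohh value ran from −0.42 to −0.19 with 1 library left out. None passed the adjusted test, which called 0.745% of genes. Only Dohh had an unadjusted p under 0.05, as did 11.2% of all genes, and DESeq2 also called 0 of 3.

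The second question is what N1-AcSpd, an acetylated derivative of spermidine, did to these genes within each cell type. In progenitors the 2 treated libraries lay above the 2 untreated ones for all 3 genes, which was so for 18.1% of genes. Dhps mRNA averaged 27.9 ± 2.23 CPM untreated and 33.6 ± 0.296 CPM with N1-AcSpd (mean ± SD, n = 2), a log2 fold change of 0.27 (95% interval 0.02 to 0.52, edgeR adjusted p = 0.516). The differences of Dohh, 0.19 (−0.08 to 0.47, adjusted p = 0.725), and Eif5a, 0.08 (−0.17 to 0.33, adjusted p = 0.910), were smaller. The adjusted test called 0.239% of genes and none of the 3. Dhps alone reached an unadjusted p under 0.05, beside 8.87% of genes, and DESeq2 called 0 of 3.

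In HFSCs only Dhps separated the treated from the untreated libraries, with 29.6 and 31.0 against 26.6 and 27.3 CPM, a direction without overlap shared by 16.7% of genes. Its log2 fold change was 0.17 (95% interval −0.08 to 0.42, edgeR adjusted p = 0.778). For Eif5a it was 0.12 (−0.13 to 0.37, adjusted p = 0.866) and for Dohh 0.07 (−0.20 to 0.34, adjusted p = 0.941), with overlapping libraries. None of the 3 genes passed, nor did any other of the 14224 genes (0% called; 7.73% had an unadjusted p under 0.05 and DESeq2 called 125 genes, none of the 3).

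**Figure D2:**
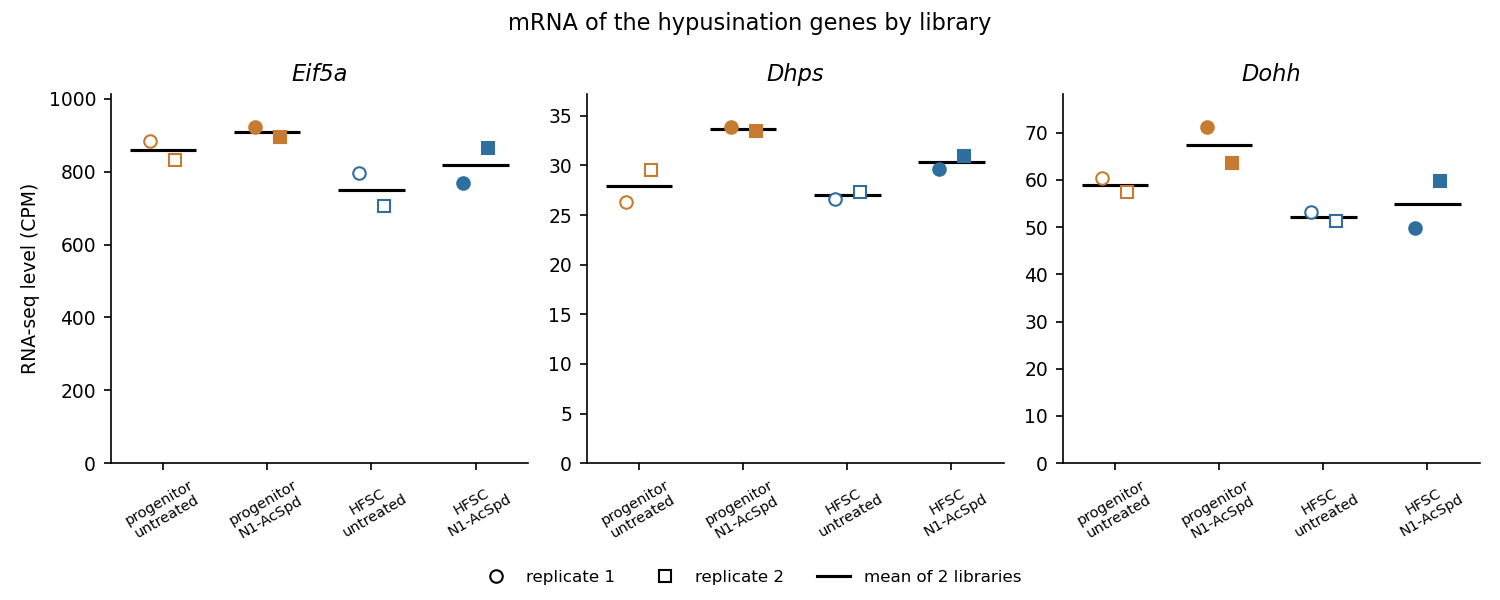
RNA-seq level in CPM (y axis, from 0) of Eif5a, Dhps and Dohh in each library, by group on the x axis. Circles are replicate 1, squares replicate 2, open symbols untreated, filled symbols N1-AcSpd, bars the mean of 2 libraries; the 4 treated libraries of Dhps lie at 29.6 to 33.9 CPM, above the 4 untreated ones.

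Averaged over both cell types, Dhps was the gene with a separation by treatment. The 4 treated RNA-seq libraries held 29.6 to 33.9 CPM and the 4 untreated ones 26.4 to 29.5 CPM, without overlap; 3.95% of genes were higher in all 4 treated libraries in this way. Its log2 fold change was 0.22 (SE 0.077, 95% interval 0.04 to 0.39), or 1.16-fold. The two-sided exact permutation test over the 70 splits of 4 against 4 libraries gave p = 0.0286, the smallest it can give. It was 1 of 6 such tests made in RNA-seq (3 genes, both averaged contrasts). The same tests were also made in Ribo-seq, where the smallest exact permutation p was 0.0857, for Eif5a by cell type. The test treats the 4 libraries of a side as exchangeable, although they are both cell types of the same 2 mice. Paired by cell type and replicate number, Dhps was higher with N1-AcSpd in 4 of 4 pairs, and an exact sign-flip permutation test over these 4 pairs gave p = 0.125, the smallest it can give. Adjusted over all genes, the edgeR quasi-likelihood test for Dhps gave p = 0.212 against the exact permutation p of 0.0286. The difference thus did not pass the threshold that 1.64% of genes passed.

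For Eif5a the averaged treatment difference was 0.10 (95% interval −0.08 to 0.28, edgeR adjusted p = 0.595, exact permutation p = 0.286). For Dohh it was 0.13 (−0.06 to 0.32, edgeR adjusted p = 0.506, exact permutation p = 0.343). The treated and untreated libraries of both genes overlapped. The intervals leave room for a rise of up to 1.21-fold in Eif5a and 1.25-fold in Dohh.

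Averaged over both treatments, Dohh and Eif5a were lower in HFSCs than in progenitors by a small margin that did not pass. Dohh ranged from 49.8 to 59.9 CPM in the 4 HFSC libraries and from 57.5 to 71.2 CPM in the 4 progenitor libraries, overlapping only through the N1-AcSpd HFSC library of replicate 2; 4.42% of genes were lower without overlap. Its log2 fold change was −0.24 (SE 0.084, 95% interval −0.43 to −0.04), 0.849-fold, with an edgeR adjusted p of 0.178 and an exact permutation p of 0.0571. Eif5a ranged from 706 to 866 CPM in HFSCs and from 831 to 922 CPM in progenitors. Its log2 fold change was −0.17 (SE 0.078, 95% interval −0.35 to 0.01), with an edgeR adjusted p of 0.293 and an exact permutation p of 0.0571. Paired by treatment and replicate number, each of both genes was lower in HFSCs in 4 of 4 pairs (exact sign-flip permutation p = 0.125, the smallest possible). Dhps differed by −0.10 (−0.28 to 0.07, edgeR adjusted p = 0.543, exact permutation p = 0.400) and its libraries overlapped. This contrast called 3.91% of genes and 18.1% had an unadjusted p under 0.05, among the 3 genes Dohh alone, and DESeq2 called 0 of 3.

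Whether N1-AcSpd acted differently in the 2 cell types was tested as the interaction. It was 0.04 for Eif5a (95% interval −0.31 to 0.40), −0.10 for Dhps (−0.45 to 0.25) and −0.12 for Dohh (−0.51 to 0.26), with an edgeR adjusted p of 1.00 for each. No gene of the 14224 passed (0% called; 0.83% had an unadjusted p under 0.05, and DESeq2 also called 0). The comparisons above share libraries, so their values are not independent of each other.

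Markers of suprabasal keratinocytes, the differentiating cells above the basal layer, had their lowest summed level in untreated HFSCs and their highest in N1-AcSpd progenitors. The summed RNA-seq level of Krt1, Krt10, Ivl and Lor, all 4 of the list being measured and none at 0, was 28.1 to 28.7 CPM in untreated HFSCs and 49.0 to 62.1 CPM in untreated progenitors. It was 49.7 to 69.1 CPM in N1-AcSpd HFSCs and 131 to 216 CPM in N1-AcSpd progenitors. Averaged over treatments, 3 of the 4 passed as lower in HFSCs, beside 3.91% of all genes called in this contrast. Averaged over cell types 2 passed as higher with N1-AcSpd (Ivl at 1.16 and Krt1 at 1.64 on the log2 scale), beside 1.64% of all genes. Within single groups 1 passed between treated cell types and 1 for N1-AcSpd in progenitors, Ivl each time (0.745% and 0.239% of all genes called). Between untreated cell types and for N1-AcSpd in HFSCs 0 passed (0.148% and 0% of all genes called).

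The HFSC marker list, Krt15 and Cd34 included, had all 6 members measured and none at 0. Its summed RNA-seq level was 1123 to 1275 CPM in untreated HFSCs and 624 to 782 CPM in N1-AcSpd HFSCs. In progenitors it was 378 to 417 CPM untreated and 262 to 273 CPM with N1-AcSpd. Averaged over treatments 5 of the 6 passed as higher in HFSCs, beside 3.91% of all genes called in this contrast. Cd34 was among them, and its call follows from the sort on CD34. Averaged over cell types only Krt15 passed by treatment, as lower with N1-AcSpd (−0.99 on the log2 scale, edgeR adjusted p = 0.00446), beside 1.64% of all genes. The part of either marker list in the values of Dhps, Dohh and Eif5a was not tested, and in bulk samples fewer cells of a type cannot be told apart from less RNA per cell.

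Footprints of Eif5a were the most numerous of the axis, at 25 to 198 per library. Untreated progenitors held 38 and 198 of them (964 and 804 CPM) and untreated HFSCs 25 and 73 (440 and 585 CPM). N1-AcSpd progenitors held 54 and 41 (674 and 680 CPM) and N1-AcSpd HFSCs 108 and 32 (757 and 536 CPM). The lowest 3 libraries were both untreated HFSC libraries and a treated HFSC one. Both untreated HFSC libraries lay below the untreated progenitors, as was so for 15.4% of 8440 genes tested in Ribo-seq. The log2 fold change between untreated HFSCs and progenitors was −0.75 (SE 0.411, 95% interval −1.55 to 0.06, or 0.341-fold to 1.04-fold), with an unadjusted p of 0.0693 and an edgeR adjusted p of 1.00. With N1-AcSpd the difference between the cell types was −0.05 (−0.85 to 0.76, edgeR adjusted p = 1.00). The interaction, 0.70 (−0.44 to 1.84, edgeR adjusted p = 1.00), does not show that the treatments differed in this respect.

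The N1-AcSpd difference of Eif5a footprints was −0.37 in progenitors (95% interval −1.17 to 0.44) and 0.34 in HFSCs (−0.47 to 1.14) on the log2 scale, neither past the test (edgeR adjusted p = 0.999 and 1.00). In progenitors the 2 treated libraries lay below the untreated ones, as in 15.3% of genes. Averaged, the cell type difference was −0.40 (−0.97 to 0.17) and the treatment difference −0.02 (−0.59 to 0.56), both with an edgeR adjusted p of 1.00. With 2 libraries per group at this depth, each of these intervals for Eif5a footprints includes 0 and changes of either sign.

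Dohh footprints numbered 1 and 36 in untreated progenitors (25.4 and 146 CPM) and 5 and 20 in untreated HFSCs (88.0 and 160 CPM). They numbered 9 and 7 in N1-AcSpd progenitors (112 and 116 CPM) and 8 and 7 in N1-AcSpd HFSCs (56.1 and 117 CPM). The library with a single Dohh footprint was also the shallowest, and the libraries overlapped between the groups in every contrast. The log2 fold changes ran from −0.70 (N1-AcSpd in HFSCs, 95% interval −2.12 to 0.73) to 0.26 (untreated HFSCs over progenitors, −1.08 to 1.59). None of the 6 passed (edgeR adjusted p = 0.999 to 1.00). The untreated cell type difference rests on few reads: without the progenitor library of replicate 2, which held the 36 footprints, it was 2.32, and without other single libraries it fell as low as −0.20.

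Dhps footprints were at or near the floor of 3 counts, with 1 and 2 in untreated progenitors, 4 and 1 in untreated HFSCs, 5 and 1 in N1-AcSpd progenitors and 3 and 1 in N1-AcSpd HFSCs. No fitted fold change is given for them. As pooled counts, N1-AcSpd libraries held 10 Dhps footprints among 358052 and untreated libraries 8 among 488273, a rate ratio of 1.70 (exact conditional 95% interval 0.606 to 4.97). Leaving out each library in turn moved this ratio between 1.03, without untreated progenitor replicate 2, and 3.04, without untreated HFSC replicate 1, and it was 1.11 without N1-AcSpd progenitor replicate 1. HFSC libraries held 9 among 397682 and progenitor libraries 9 among 448643, a ratio of 1.13 (0.397 to 3.21). That ratio lay between 0.584, without untreated progenitor replicate 2, and 2.07, without N1-AcSpd progenitor replicate 1, and it was 0.722 without untreated HFSC replicate 1. Both intervals with all libraries cover counting error only, and both include 1 and the ratio seen in the mRNA.

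**Figure D3:**
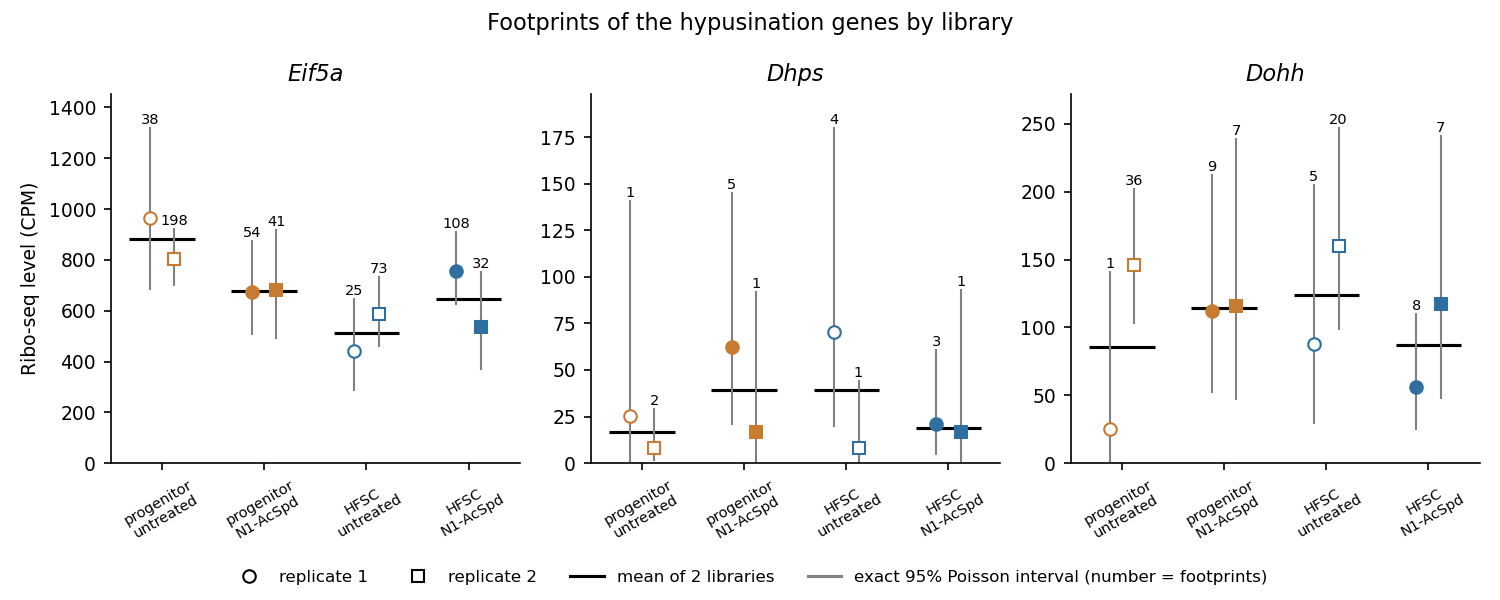
Ribo-seq level in CPM (y axis, from 0) of Eif5a, Dhps and Dohh in each library by group, with exact 95% Poisson intervals of the footprint count (grey) and the count above each. Symbols are as in the plot of mRNA by library. The intervals of the 1 to 5 Dhps footprints are wide for their values, from 19.2 to 180 CPM in the untreated HFSC library of replicate 1. Those of Eif5a are narrowest in the library with 198 footprints.

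In Ribo-seq the adjusted test called 0.0118% of genes between untreated cell types, 0.0355% between treated ones, 0.0237% for N1-AcSpd in progenitors and 0% in HFSCs. In the averaged contrasts it called 0.154% by cell type and 0.0829% by treatment. Neither Eif5a nor Dohh was among them, and DESeq2 called neither. Neither had an unadjusted p under 0.05 in any contrast, against 2.64% and 3.45% of genes between untreated and treated cell types, 2.83% and 3.54% for N1-AcSpd in progenitors and HFSCs, 4.14% and 4.85% in the averages and 2.73% in the interaction, which called 0%.

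Translational efficiency (TE), the footprint level relative to the mRNA level, was tested as the interaction of assay and group. The log2 TE change of Eif5a in untreated HFSCs over progenitors was −0.55 (95% interval −1.29 to 0.19, edgeR adjusted p = 0.948), and with N1-AcSpd it was 0.14 (−0.51 to 0.79, adjusted p = 0.943). For N1-AcSpd it was −0.48 in progenitors (−1.16 to 0.20, adjusted p = 0.816) and 0.21 in HFSCs (−0.48 to 0.89, adjusted p = 0.936). All of these intervals include 0.

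For Dohh the largest estimate was for N1-AcSpd in HFSCs, a log2 TE change of −0.93 (95% interval −2.09 to 0.24, edgeR adjusted p = 0.790). It ran from −1.22 to −0.38 with 1 library left out. The treatment estimate averaged over cell types was −0.63 (−1.44 to 0.18, adjusted p = 0.744) and the cell type estimate averaged over treatments −0.03 (−0.85 to 0.79, adjusted p = 1.00). Neither Eif5a nor Dohh had an unadjusted p under 0.05 in any of the 6 TE contrasts. No gene of the 8019 to 8776 tested passed the adjusted test in any of them (0%). An unadjusted p under 0.05 was found for 5.23% and 6.25% of genes between untreated and treated cell types, 6% and 6.9% for N1-AcSpd in progenitors and HFSCs, and 6.01% and 7.35% in the averages. DESeq2 called 6 genes in the averaged treatment contrast and 0 in the others, with neither Eif5a nor Dohh among them.

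**Figure D4:**
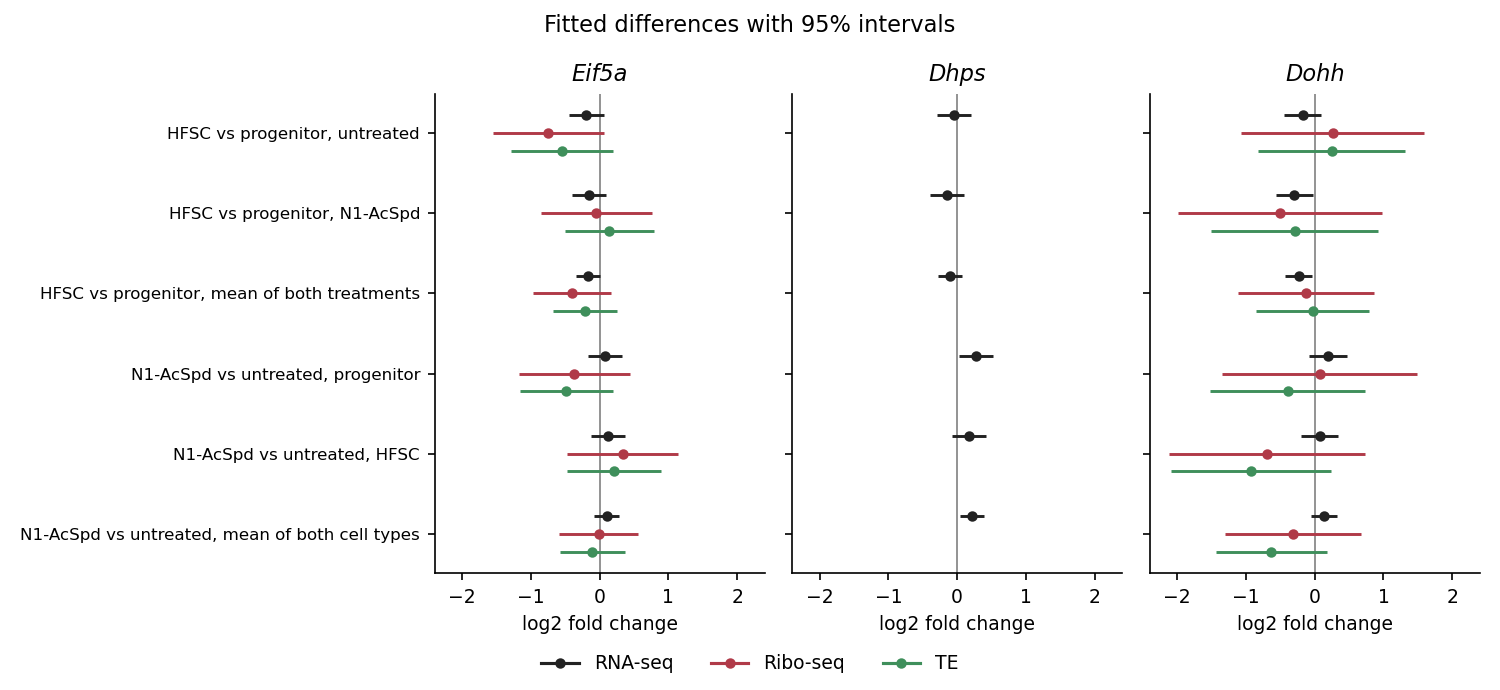
Log2 fold changes (x axis) of Eif5a, Dhps and Dohh with 95% intervals from the edgeR fits, for 6 comparisons (y axis) in RNA-seq, Ribo-seq and TE. The RNA-seq intervals of Dhps lie above 0 for N1-AcSpd in progenitors (0.02 to 0.52) and averaged over cell types (0.04 to 0.39) although no adjusted test passed; Ribo-seq and TE intervals are several times wider, and none is drawn for Dhps footprints.

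Within the axis, Eif5a and Dohh varied together over the 8 RNA-seq libraries (Pearson r = 0.91 of log2 CPM), while Dhps varied less closely with Dohh (r = 0.67) and Eif5a (r = 0.57). The libraries share mice and culture, and 219 of 10176 genes averaging 100 RNA-seq counts or more had r over 0.9 with Eif5a, 64 with Dhps and 225 with Dohh. The genes most like Eif5a were Pitpnm3 (r = 0.99), Ces2g (0.98), a carboxylesterase, and Tomm70a (0.98), a mitochondrial import receptor. Those most like Dohh were Nme1 (0.99), a nucleoside diphosphate kinase, Gltp (0.99), a glycolipid transfer protein, and Krt16 (0.99), a keratin of activated epidermis. Those most like Dhps were Srp19 (0.96), a subunit of the signal recognition particle, Pusl1 (0.96), a pseudouridine synthase relative, and Trex2 (0.96), an exonuclease of keratinocytes. Krt16 ranged from 999 to 3474 CPM, a far wider span than the 49.8 to 71.2 CPM of Dohh, so likeness here is of order and not of size.

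The genes around the axis fall into 3 lists. The first holds the paralogue Eif5a2, the exporter Xpo4, which carries eIF5A out of the nucleus, and the enzymes that acetylate or deacetylate eIF5A or polyamines, Kat2b, Hdac6, Sirt2 and Sat1. In RNA-seq averaged over treatments, 1 of its 6 members was higher in HFSCs and 0 were lower, beside the 3.91% of all genes called in this contrast, and the median log2 fold change was 0.00 beside −0.01 for all genes. The member was Hdac6, which encodes a cytoplasmic deacetylase that acts on tubulin and eIF5A. It measured 22.6 and 24.1 CPM in untreated HFSCs and 21.1 and 23.0 CPM in N1-AcSpd HFSCs. It measured 18.7 CPM in both untreated and 15.9 and 16.8 CPM in both N1-AcSpd progenitor libraries. All 4 HFSC libraries lay above the progenitors, by 0.38 on the log2 scale (SE 0.085, edgeR adjusted p = 0.0492). The call held with DESeq2 (adjusted p = 0.0331) and in edgeR with RLE factors (0.0469), no minimum count (0.0390), a minimum mean of 10 counts (0.0431) and sums over transcripts (0.0396). The call was lost without any 1 of the 8 libraries (adjusted p = 0.0723 to 0.179) and with the mouse as a block (adjusted p = 0.0657).

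No member of this list passed in the other 5 RNA-seq contrasts. For N1-AcSpd over both cell types the smallest p-values were those of Kat2b, at −0.43 (SE 0.134, edgeR adjusted p = 0.167), and Sat1, the acetyltransferase that makes N1-AcSpd, at 0.73 (SE 0.228, adjusted p = 0.170). Sat1 was also the least even between libraries, with 209 and 470 CPM in N1-AcSpd progenitors. Xpo4 stood at 0.24 (adjusted p = 0.216). In Ribo-seq and TE 4 of the 6 were tested in each contrast, and none passed. Eif5a2 differed by 0.07 between cell types (SE 0.254, adjusted p = 0.928) and by 0.04 with treatment (adjusted p = 0.958). Wdr83, the neighbour opposite Dhps, ranged from 15.2 to 22.1 CPM, and its group means, 18.8 and 16.4 CPM in untreated and N1-AcSpd progenitors and 20.2 and 18.9 CPM in HFSCs, were lower with treatment where those of Dhps were higher.

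The second list holds 14 genes, Sat1 again included, that make, interconvert or move spermidine, the substrate of deoxyhypusine synthase. None passed in any of the 6 RNA-seq contrasts in the main edgeR fit. In the averaged contrasts 5 of the 14 had an unadjusted p under 0.05 between the cell types and 3 with treatment. The shares of all genes were 18.1% and 15.6%. The list's median was −0.07 by cell type and 0.04 by treatment, beside −0.01 for all genes in both. Srm, which encodes the enzyme that makes spermidine from putrescine, came closest by cell type. Its untreated values were 163 and 167 CPM in progenitors and 122 and 131 CPM in HFSCs. With N1-AcSpd they were 205 and 192 CPM in progenitors and 154 and 177 CPM in HFSCs. Within each treatment the HFSC libraries were lower and within each cell type the treated libraries higher. The log2 fold change was −0.32 by cell type (SE 0.075, edgeR adjusted p = 0.0518) and 0.33 by treatment (SE 0.075, adjusted p = 0.0764). DESeq2 called both (adjusted p = 0.00793 and 0.00803). By cell type edgeR also called Srm with RLE factors (adjusted p = 0.0477), no minimum count (0.0407) and a minimum mean of 10 counts (0.0478). With the replicate block (0.0633) and sums over transcripts (0.0600) it did not. By treatment, of these edgeR settings only no minimum count called Srm (adjusted p = 0.0432).

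Of the others, Azin2, the gene of an antizyme inhibitor, stood at −0.66 with treatment (SE 0.149, edgeR adjusted p = 0.0764). Smox, the gene of spermine oxidase, stood at −0.45 by cell type, HFSCs over progenitors (SE 0.164, edgeR adjusted p = 0.185). Odc1, the gene of the first enzyme of polyamine synthesis, stood at −0.04 by cell type (adjusted p = 0.922) and −0.15 by treatment (adjusted p = 0.704). In Ribo-seq only 6 of the 14 had enough footprints to be tested, in TE 6 to 8, and none passed in either. The smallest Ribo-seq p was that of Atp13a2, a polyamine transporter gene, by treatment (edgeR adjusted p = 0.0772), with 35 footprints in the untreated libraries and 4 in the treated ones.

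The third list holds 10 factors of elongation and termination, the steps in which eIF5A acts. None passed in RNA-seq, Ribo-seq or TE in any contrast. Between the cell types 8 of the 10 had negative mRNA fold changes in the averaged contrast, with a median of −0.13 beside −0.01 for all genes, and with treatment 5 were above and 5 below 0. Abce1, which encodes the factor that recycles ribosomes, had the smallest p in both averaged contrasts, at −0.21 by cell type (SE 0.078, edgeR adjusted p = 0.197) and 0.19 by treatment (SE 0.078, adjusted p = 0.292). In footprints the smallest p by cell type was that of Eef1d, at −0.65 (SE 0.315, adjusted p = 1.00), and its TE stood at −0.63 (SE 0.264, adjusted p = 0.805). The smallest TE p by treatment was that of Eefsec, the gene of the elongation factor for selenocysteine (edgeR adjusted p = 0.465). It had 22 footprints in the untreated libraries, 15 of them in 1 library, and 2 in the treated ones, so no fitted fold change is given. Eef1b2, an exchange factor of the elongation factor eEF1A, had a TE of 0.71 with treatment (SE 0.212, adjusted p = 0.465). Eef2k, the gene of the kinase of eEF2, had one of −1.24 (SE 0.512, adjusted p = 0.629). The Eef2k value rests on 66 footprints in the untreated libraries, 39 of them in 1 library, and 21 in the treated ones. Untreated progenitor replicate 1 and N1-AcSpd HFSC replicate 2 each held 0. In the TE contrast by treatment 5 of the 10 had an unadjusted p under 0.05, beside 7.35% of all genes.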

How the data were processed

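Sorted progenitors and HFSCs from organoids of 2 mice gave 8 RNA-seq and 8 Ribo-seq libraries. Per the labels and the study's methods, reads were trimmed with flexbar, rRNA and tRNA reads were removed with Bowtie 1.2.3, the rest was aligned with STAR 2.7.3a to GRCm38.p5, and reads were counted with featureCounts. The authors deposited unscaled read counts per transcript. One of the deposited tables of differential translation served only to pair transcripts with gene symbols and to check the count tables, whose values equal its own in 512208 of 512208 compared. The tables' fold changes, p-values and other columns of the authors' comparisons were not used. The groups come from the sample labels, and the members and gene lists were chosen with earlier results of these data known.

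One transcript per gene was kept. CPM are counts divided by TMM-scaled library sizes. Only for the levels of the cell type markers were the library sizes left without TMM scaling. Fits used edgeR 4.0.16 in R 4.3.3, with 4 groups per assay, a minimum average of 1 count per gene, the quasi-likelihood test and Benjamini-Hochberg adjustment over all genes at 0.05. TE was the interaction of assay and group. DESeq2 1.42.0 was an alternative, as were RLE factors, a lower limit of 0 or 10 on the mean count, sums over transcripts, a term for the mouse and leaving out each library. The sums count a read shared by several transcripts more than once: 11 of the 13 Eif5a transcripts had identical counts. The fits were tested on simulated data. Named genes are the members, Eif5a2, genes overlapping a member's exons, the 3 most alike in log2(CPM + 0.1) per member, and list genes past the threshold, otherwise the 1 or 2 with the smallest p-values. Hdac6 and Srm were recomputed under the alternatives, and Odc1, Xpo4, Sat1, Eef1b2 and Eef2k named, and sign-flip tests and Dhps ratios without a library made, after their values were seen.

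By the labels the replicate number names the mouse, and the pairs of libraries used here rest on those labels. In RNA-seq the difference between the mice correlated over 12256 genes at 0.35 to 0.60 among 3 groups and at −0.58 to −0.39 with the N1-AcSpd HFSC group. In Ribo-seq, over 2261 genes, it correlated at −0.01 to 0.11. Whether the replicate numbers are crossed in the N1-AcSpd HFSC RNA-seq group was not tested. The pair counts, sign-flip tests and block results take them as labelled unless exchanged numbers are stated. With 2 mice, p-values rest on the spread between few libraries. PCR duplicates were not removed by molecular identifiers, so counting intervals are minimal.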

Additional observations from a re-analysis of the deposited data

How the results depend on the processing

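Eif5a, Dhps and Dohh were called in none of the 47 main results, 21 in RNA-seq, 14 in Ribo-seq and 12 in TE; Dhps was left out of Ribo-seq and TE for want of footprints. Footprint depth limits what those assays can show. Of 310 values under alternatives that keep all libraries, 307 had the sign of the main result. The exceptions, whose cause was not tested, were Dohh TE for N1-AcSpd in progenitors summed over transcripts (0.089 against −0.39) and Dohh TE averaged by cell type with the mouse as replicate block (0.086 against −0.03) and with exchanged numbers (0.081). Dohh TE between treated cell types had no value with a minimum mean of 10 counts. With a library left out, 314 of 344 values had the main sign. The results that changed sign ranged as follows. In RNA-seq, Dohh for N1-AcSpd in HFSCs lay between −0.055 and 0.17, Dhps between untreated cell types between −0.13 and 0.055, and the Eif5a interaction between −0.043 and 0.14. In Ribo-seq, Eif5a lay between −0.32 and 0.20 between treated cell types, −0.0023 and 0.54 for N1-AcSpd in HFSCs and −0.22 and 0.073 averaged by treatment. Dohh footprints lay between −0.20 and 2.32 between untreated cell types, −0.97 and 0.056 between treated ones, −0.38 and 2.10 for N1-AcSpd in progenitors, −0.35 and 0.91 averaged by cell type and −0.57 and 0.69 averaged by treatment. In TE, Eif5a lay between −0.28 and 0.37 between treated cell types, −0.22 and 0.47 for N1-AcSpd in HFSCs and −0.34 and 6.3e-05 averaged by treatment. Dohh TE lay between −0.39 and 2.49 between untreated cell types, −0.62 and 0.20 between treated ones, −0.63 and 1.87 for N1-AcSpd in progenitors, −0.28 and 1.15 averaged by cell type and −0.80 and 0.53 averaged by treatment. Others kept their sign but moved by over 1.5 times with a library left out. In RNA-seq these were, beside the values given above, Eif5a between treated cell types (−0.22 to −0.085), for N1-AcSpd in progenitors (0.054 to 0.13) and HFSCs (0.039 to 0.24) and averaged by treatment (0.060 to 0.17), Dohh for N1-AcSpd in progenitors (0.11 to 0.28), averaged by treatment (0.073 to 0.19) and in the interaction (−0.26 to −0.027), and Dhps averaged by cell type (−0.14 to −0.048) and in the interaction (−0.20 to −0.020). In Ribo-seq they were Dohh for N1-AcSpd in HFSCs (−1.19 to −0.19) and in the interaction (−2.83 to −0.21) and the Eif5a interaction (0.43 to 0.94). In TE they were Eif5a between untreated cell types (−0.87 to −0.35) and averaged by cell type (−0.39 to −0.060). The highest of the Dohh values that changed sign came without untreated progenitor replicate 2, which leaves the library with 1 Dohh footprint to stand for that group, assumed to vary like the others.

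Numbers of genes called over all genes moved more, given here in the order untreated cell types, treated cell types, N1-AcSpd in progenitors, N1-AcSpd in HFSCs, average by cell type and average by treatment. In RNA-seq edgeR called 21, 106, 34, 0, 556 and 233 genes, DESeq2 268, 377, 174, 125, 950 and 581, and edgeR with no minimum count 167, 262, 111, 43, 869 and 413. The replicate block gave 3, 44, 7, 0, 444 and 135 genes, sums over transcripts 15, 70, 1, 0, 478 and 147, and a minimum mean of 10 counts 20 for N1-AcSpd in progenitors. Exchanging the numbers of both treated HFSC RNA-seq libraries under the replicate block, chosen after seeing the data, gave 752, 903, 441, 269, 1950 and 1260 genes, Dohh averaged by cell type among them (−0.236, edgeR adjusted p = 0.0382), and in TE 2 for N1-AcSpd in HFSCs and 3 averaged by treatment. With a library left out, RNA-seq gave 1 to 21, 2 to 89, 0 to 21, 0 to 4, 188 to 457 and 42 to 137 genes. In Ribo-seq edgeR called 1, 3, 2, 0, 13 and 7 genes, DESeq2 2, 1, 0, 0, 7 and 0, sums over transcripts 0, 0, 0, 0, 1 and 0, and leaving out a library 1 to 15, 0 to 8, 0 to 13, 0 to 1, 2 to 23 and 2 to 19. RLE factors gave 3 and 5 genes between untreated and treated cell types and 12 averaged by treatment. A minimum mean of 10 footprints gave 2, 1, 8 and 2 genes between untreated and treated cell types and in both averages. The block gave 2 between untreated cell types and 4 averaged by treatment, and no minimum 3 averaged by treatment. In TE, where edgeR called 0 in each, the block gave 5 for N1-AcSpd in progenitors, no minimum 1 in HFSCs, DESeq2 and sums over transcripts 6 and 3 averaged by treatment, and leaving out a library 0 to 1 in HFSCs and 0 to 4 averaged by treatment. The replicate block changed no call of the 3 genes.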
